A study of Mus musculus with 8 samples.

Results

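The genes described here encode proteins that bind, store and repress maternal mRNA in the oocyte. They are 10 of the 37224 genes in the count table and were chosen by name for that role, with earlier results of these data known: Rbpms2, Zar1, Zar1l, Ybx2, Ddx6, Lsm14a, Lsm14b, Patl2, Eif4enif1 and Eif4e1b. All 10 were matched by gene identifier and all 10 passed the filter on low counts. They were measured in single mouse MII oocytes, the mature eggs that wait in the second meiotic metaphase for fertilisation, taken from superovulated females. Of 8 libraries, 4 came from Setd1bGdf9cKO females, in which Setd1b is deleted conditionally under the name of Gdf9, a gene switched on in early oocyte growth, and 4 came from control females. SETD1B methylates histone H3 at lysine 4, a mark of active promoters, and the comparison asks what the egg's mRNA looks like once the oocyte has lost it. Strain, age and the alleles of the control females are not stated in the sources used here, nor is the number of females behind each group, so p-values measure the spread between these libraries, which may be partly technical.

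A growing oocyte makes mRNA that it does not translate at once. RNA-binding proteins such as YBX2 and ZAR1 coat and stabilise these transcripts, and a repression complex built on the helicase DDX6, with LSM14 and PATL proteins, holds them silent. The cap-binding arm of this complex, the eIF4E transporter (gene Eif4enif1) with oocyte eIF4E1B, keeps the translation initiation machinery off the cap. The transcription of the oocyte falls silent before it matures, so that the MII egg lives on this store until the embryo takes over.

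Setd1b, measured to check the labels, had 4.43, 5.06, 2.97 and 3.54 CPM (counts relative to a library total that is scaled for composition) in knockout replicates 1 to 4, against 10.7, 12.8, 9.24 and 10.9 CPM in control replicates 1 to 4. The groups did not overlap (log2 fold change -1.44 ± 0.41, adjusted p = 0.02214 in edgeR). That call was lost with library totals alone (-1.04, adjusted p = 0.08945) and without knockout replicate 3, knockout replicate 4 or control replicate 2 (adjusted p = 0.05031 to 0.05601), all in edgeR. The deleted part of the gene is not named in the labels, so these gene-wide counts do not separate working from deleted transcript. The knockout libraries held 9488899 to 11313502 assigned reads and the control libraries 11029602 to 13519404. All 10 oocyte markers examined passed the filter, 5 of them called higher and 1 lower in knockout oocytes, beside 25.8% of all tested genes called. Zp1, Zp2, Zp3, Nlrp5 and Padi6 were higher, with log2 fold changes of 1.54 to 3.02, and Oosp1 was lower, at -1.43. The summed level of the 10 was 15805 to 21219 CPM in knockout and 16608 to 22450.5 CPM in control libraries. Most of that sum came from Dppa3, Gdf9 and Bmp15, which were not called. Of 20 markers of the follicle's somatic cells (cumulus and granulosa), 9 were at 0 in every library, among them Foxl2, Amh, Inha and Lhcgr, and 5 passed the filter. The summed level of those 20 was 133 to 198 CPM in knockout and 241 to 257 CPM in control libraries, most of it from Esr2 and Cyp19a1, the 2 of them called lower. Of 12 markers of blood, stroma and epithelium, 3 were at 0 throughout and 5 passed the filter, of which Cd68 was called higher and Epcam and Pecam1 lower in knockout oocytes. The sum of the 12 was 36.1 to 59.4 CPM in knockout and 96.0 to 125 CPM in control libraries, most of it from Pecam1 and Epcam. The genes at 0 throughout were Col1a2, Krt8 and Ptprc. Both of these sums were lower in knockout libraries, and each rested mainly on 2 genes. The part of these markers in the results below was not tested.

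The storage genes moved in different directions. Of the 10, Rbpms2 and Ybx2 were called higher in knockout oocytes and Lsm14a, Lsm14b and Eif4e1b were called lower, at an adjusted p under 0.05 in edgeR's quasi-likelihood test, while Zar1, Zar1l, Ddx6, Patl2 and Eif4enif1 were not called. Among all 11066 tested genes, 25.8% were called, 13.6% higher and 12.2% lower in knockout oocytes, so calls were common among genes of any kind. In 5 of the 10 genes all knockout libraries lay on 1 side of all control libraries, as they did in 31.3% of all tested genes. As a log2 fold change of knockout over control, the median storage gene stood at -0.0062 and the median tested gene at 0.10. Between oocytes of 1 group the storage genes had a median coefficient of variation of 18.5% in knockout and 15.6% in control libraries, against 28.1% in knockout and 38.4% in control libraries over all tested genes. The storage genes were also more abundant, with a median of 145 CPM in knockout and 113 CPM in control libraries, against 16.8 CPM in knockout and 13.4 CPM in control libraries over all tested genes. The part of abundance in the lower variation was not tested.

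**Figure D1:**
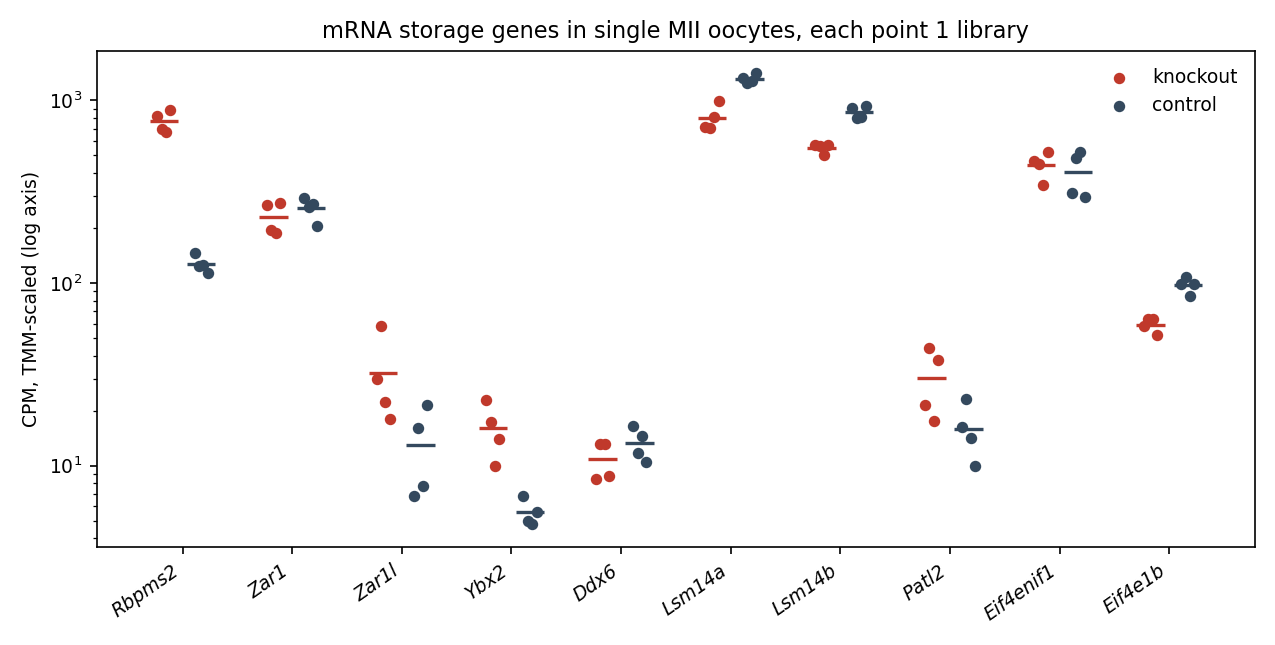
Level of each storage gene in every library (CPM, log axis), knockout oocytes in red on the left and control oocytes in dark blue on the right of each gene, with a line at the mean of 4 libraries. Rbpms2 and Ybx2 lie above the control libraries in all 4 knockout libraries, Lsm14a, Lsm14b and Eif4e1b lie below them, and the other 5 genes overlap.

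The DNA before the start sites of 4 of these genes is shown because it carries a contrast within the set. These stretches were taken from RefSeq start sites on GRCm38.p6, 5′ to 3′ on the strand of the gene, and were cut to leave out every annotated exon. In the first 3 the capitals mark CG dinucleotides, the targets of the CpG-binding subunit that brings SETD1 complexes to unmethylated promoters. In Zar1l the capitals mark CAATTA, which is TAATTG read on the other strand, the core letters bound by NOBOX and other homeodomain proteins. The stretches lie at chr9:65630332-65630558 (Rbpms2, + strand), chr11:69935649-69935795 (Ybx2, + strand), chr2:180024737-180024986 (Lsm14b, + strand) and chr5:150518165-150518409 (Zar1l, - strand). The Rbpms2 gene as counted begins at 65629648, so its stretch lies within that gene and precedes only the RefSeq start used here.
Rbpms2: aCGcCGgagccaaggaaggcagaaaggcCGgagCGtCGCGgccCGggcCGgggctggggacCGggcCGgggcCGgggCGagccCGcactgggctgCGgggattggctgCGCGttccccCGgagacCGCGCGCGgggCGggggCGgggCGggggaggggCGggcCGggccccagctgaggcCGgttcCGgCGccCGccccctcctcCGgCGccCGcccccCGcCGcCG
Ybx2: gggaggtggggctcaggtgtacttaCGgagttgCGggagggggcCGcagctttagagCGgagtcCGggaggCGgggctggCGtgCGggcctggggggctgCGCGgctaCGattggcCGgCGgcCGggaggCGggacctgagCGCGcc
Lsm14b: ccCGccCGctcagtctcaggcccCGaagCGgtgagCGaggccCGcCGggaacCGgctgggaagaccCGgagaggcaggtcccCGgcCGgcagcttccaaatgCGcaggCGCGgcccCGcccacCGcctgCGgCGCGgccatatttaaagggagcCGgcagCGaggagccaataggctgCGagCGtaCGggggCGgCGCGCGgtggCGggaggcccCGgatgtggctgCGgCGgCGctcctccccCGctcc
Zar1l: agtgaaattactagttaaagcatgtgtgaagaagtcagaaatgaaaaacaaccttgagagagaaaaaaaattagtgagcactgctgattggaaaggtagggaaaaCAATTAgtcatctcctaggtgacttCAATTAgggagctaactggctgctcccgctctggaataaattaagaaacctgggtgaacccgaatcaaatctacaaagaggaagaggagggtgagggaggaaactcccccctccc
The printed stretch of Rbpms2 held 36 CG dinucleotides, that of Ybx2 17, that of Lsm14b 34 and that of Zar1l 2. RefSeq gave promoters for 8 of the 10 storage genes, in 12 windows. In the full 250 bases before the start, Rbpms2 held 41 CG dinucleotides and Lsm14b 34, against a median of 6 over 32851 windows of all genes. Ybx2 held 35 and 29 in its windows, Zar1 held 9 and Zar1l 2. Dense CG was found before a gene that rose, Rbpms2, and before one that fell, Lsm14b. Tested genes with a promoter were also compared by call, each by its window with the most CG. These medians cover tested genes only, whereas the median of 6 covers windows of all genes, so they are not directly comparable. The median was 17 CG in 1134 genes higher in knockout oocytes, 18 in 1059 genes lower and 17 in 5992 genes not called. In the same order, the quartiles were 12 and 24, 10 and 26, and 10 and 24.

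Short motifs were searched on both strands of the same 250 bases. TAATTG occurred in 1 of the 12 windows of storage genes and in 7.17% of all windows. That window was Zar1l, which held the motif at 145 and 120 bases before the start. CCAAT occurred in 6 of 12 windows, against 33.8% of all windows, and those were windows of Rbpms2, Ybx2, Lsm14b, Patl2, Zar1l and Eif4enif1. TATAAA and CACGTG occurred in 0 of 12 windows, against 12.4% and 6.02% of all windows. Each match describes letters and not a bound site.

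Rbpms2 showed the largest difference among the storage genes. It encodes an RNA-binding protein with an RNA recognition motif, which in zebrafish gathers in the Balbiani body of the oocyte and is needed for female fate. The gene (ENSMUSG00000032387, chromosome 9, 65629648 to 65660528, mm10) had 815, 695, 672 and 882 CPM in knockout replicates 1 to 4, against 146, 125, 125 and 113 CPM in control replicates 1 to 4. Every knockout library lay far above every control library, and the groups did not come near each other. The means were 766 ± 99.5 CPM in knockout and 127 ± 13.7 CPM in control oocytes (SD, n = 4 each), a 6.01-fold difference (log2 fold change 2.59 ± 0.17 SE, edgeR adjusted p = 7.426e-06). For Rbpms2 the authors' deposited table lists 2.52 on the log2 scale after shrinkage, at an adjusted p of 4.04e-56. With each library left out in turn, the log2 fold change stayed between 2.51 and 2.66. Its relative Rbpms, which shares the RNA recognition motif, had 112 ± 21.9 CPM in knockout and 119 ± 27.0 CPM in control oocytes and was not called (log2 fold change -0.09, adjusted p = 0.7843 in edgeR). Within a library the ratio of Rbpms2 to Rbpms per base of gene length was 11.8, 9.81, 7.91 and 8.48 in knockout replicates 1 to 4, against 2.01, 1.09, 1.39 and 1.56 in control replicates 1 to 4. That ratio does not depend on scaling between libraries, and its groups did not overlap.

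Ybx2 was the other gene that rose. It encodes the germ-cell Y-box protein MSY2, which binds most maternal mRNA and is needed for female fertility in mice. The gene (ENSMUSG00000018554, chromosome 11, 69935796 to 69941605) had 23.0, 17.4, 9.99 and 14.1 CPM in knockout replicates 1 to 4, against 6.83, 4.96, 4.79 and 5.61 CPM in control replicates 1 to 4. The lowest knockout library, replicate 3, still lay above the highest control library. The difference was 2.90-fold, or 1.54 ± 0.38 (SE) on the log2 scale, at an adjusted p of 0.0124 in edgeR. The authors' deposited table gave 1.42 after shrinkage and 1.50 before it, with an adjusted p of 0.000223 in DESeq2. The edgeR call rested on 798 counts in knockout and 238 in control libraries. It was lost without knockout replicate 1 (log2 fold change 1.32, adjusted p = 0.05163) and with a trend on gene length removed from each library (0.96, adjusted p = 0.05787), both in edgeR. Neither of the related genes Ybx1 and Ybx3, which encode Y-box proteins of many tissues, was called in edgeR, DESeq2 or voom, and 0 of them had an unadjusted p under 0.05. Ybx1 had 164 ± 33.3 CPM in knockout and 195 ± 12.9 CPM in control oocytes, and Ybx3 had 121 ± 27.3 CPM in knockout and 84.2 ± 34.4 CPM in control oocytes. Ybx3 passed in edgeR without control replicate 3 (log2 fold change 0.82, adjusted p = 0.0411). The ratio of Ybx2 to Ybx1 per base was 0.0900 to 0.185 in knockout libraries and 0.0320 to 0.0450 in control libraries, without overlap. Ybx1 has processed copies in the genome, so its count is less certain.

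Zar1 and its paralogue Zar1l did not pass the test. Zar1 is a maternal effect gene whose loss arrests the zygote, and its protein binds stored mRNA and with it forms a membraneless store around mitochondria of the mouse oocyte. Zar1 (ENSMUSG00000063935, chromosome 5, 72577114 to 72581084) had 266, 194, 188 and 276 CPM in knockout replicates 1 to 4, against 291, 261, 271 and 204 CPM in control replicates 1 to 4. The groups overlapped throughout (log2 fold change -0.15 ± 0.19, adjusted p = 0.5872 in edgeR). The sign of this value depended on scaling: it was 0.24 with library totals alone, and -0.73 with the length trend removed, where it passed in edgeR (adjusted p = 0.02859). The median tested gene also moved, from 0.10 with composition scaling to 0.49 and -0.22. Set against that median, Zar1 stood at -0.25 with composition scaling, -0.25 with library totals alone and -0.51 with the length trend removed. Zar1l (ENSMUSG00000056586, chromosome 5, 150507055 to 150518164) had 29.98, 58.1, 22.3 and 17.9 CPM in knockout replicates 1 to 4, against 6.83, 16.0, 7.76 and 21.5 CPM in control replicates 1 to 4. Control replicate 4 reached into the knockout range, and Zar1l was the most variable storage gene, with a coefficient of variation of 56.3% in knockout and 53.8% in control libraries. Its log2 fold change of 1.30 ± 0.46 missed the threshold in edgeR (adjusted p = 0.05732), but passed in DESeq2 (1.25, adjusted p = 0.02576). The value was 0.85 without knockout replicate 2. It passed, at 1.65, without control replicate 4 (adjusted p = 0.02637) and, at 1.498, without knockout replicate 4 (adjusted p = 0.04777), both in edgeR. The ratio of Zar1l to Zar1 per base was 0.0913 to 0.422 in knockout and 0.0330 to 0.148 in control libraries, with overlap.

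The LSM14 genes of the repression complex were lower in knockout oocytes. LSM14A and LSM14B bind DDX6 and the eIF4E transporter, and LSM14B is needed for oocyte maturation in mice. Lsm14b (ENSMUSG00000039108, chromosome 2, 180024987 to 180035465) had 566, 561, 505 and 572 CPM in knockout replicates 1 to 4, against 913, 803, 808 and 926 CPM in control replicates 1 to 4. Its groups were narrow and did not overlap (log2 fold change -0.65 ± 0.14, adjusted p = 0.006229 in edgeR). Lsm14a (ENSMUSG00000066568, chromosome 7, 34344646 to 34389540) had 712, 708, 814 and 985 CPM in knockout replicates 1 to 4, against 1317, 1239, 1279 and 1406 CPM in control replicates 1 to 4, again without overlap. Its log2 fold change was -0.70 ± 0.16, with an adjusted p of 0.007054 in edgeR. The authors' deposited table gave -0.69 for Lsm14b and -0.74 for Lsm14a, with adjusted p-values of 8.15e-07 and 4.78e-05. The ratio of Lsm14b to Lsm14a per base was 0.854, 0.850, 0.666 and 0.623 in knockout replicates 1 to 4, against 0.744, 0.696, 0.678 and 0.707 in control replicates 1 to 4. The ratio overlapped between groups, with a difference of 0.07 on the log2 scale and a spread within groups of 0.17 (SD). Exons of Lsm14a overlap those of a gene on the other strand, whose reads cannot be told apart without strand, so its count is less certain.

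Ddx6 and Patl2, also of the repression complex, did not pass the test. Ddx6 (ENSMUSG00000032097, chromosome 9, 44604892 to 44640731), the helicase at its centre, had 8.49, 13.1, 13.1 and 8.76 CPM in knockout replicates 1 to 4, against 16.5, 11.7, 14.5 and 10.5 CPM in control replicates 1 to 4. The groups overlapped (log2 fold change -0.29 ± 0.34, adjusted p = 0.5677 in edgeR), and with library totals alone the sign turned (0.09). Set against the median tested gene, Ddx6 stood at -0.39 with composition scaling and at -0.40 with library totals alone. Patl2 (ENSMUSG00000027233, chromosome 2, 122120108 to 122186189), an oocyte relative of the decapping factor PATL1 whose loss blocks human oocyte maturation, had 21.4, 43.9, 17.5 and 37.7 CPM in knockout replicates 1 to 4, against 16.2, 23.0, 14.2 and 10.02 CPM in control replicates 1 to 4. Knockout replicates 1 and 3 lay within the control range (log2 fold change 0.92 ± 0.37, adjusted p = 0.08696 in edgeR). It passed with library totals alone (1.31, adjusted p = 0.02989) and among genes of at least 10 CPM in 4 libraries (1.05, adjusted p = 0.03848), both in edgeR. The ratio of Patl2 to Patl1 per base did not overlap between groups, at 0.677, 1.71, 0.502 and 0.888 in knockout replicates 1 to 4, against 0.368, 0.440, 0.294 and 0.228 in control replicates 1 to 4. The denominator Patl1 itself had 58.3 ± 12.1 CPM in knockout and 81.7 ± 6.91 CPM in control oocytes, without overlap, and was not called in edgeR (log2 fold change -0.49, adjusted p = 0.09667).

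In the cap-binding arm, Eif4e1b was lower in knockout oocytes and Eif4enif1 was not called. Eif4e1b (ENSMUSG00000074895, chromosome 13, 54783998 to 54788459), the oocyte form of the cap-binding protein, had 57.8, 63.7, 63.5 and 51.9 CPM in knockout replicates 1 to 4, against 98.4, 108, 85.0 and 98.5 CPM in control replicates 1 to 4. The groups did not overlap (log2 fold change -0.72 ± 0.18, adjusted p = 0.01181 in edgeR), and the authors' deposited table gave -0.75 with an adjusted p of 4.09e-05. Eif4e, the cap-binding protein of all cells, had 307 ± 39.3 CPM in knockout and 270.4 ± 29.9 CPM in control oocytes and was not called. The ratio of Eif4e1b to Eif4e per base was 0.297, 0.256, 0.248 and 0.200 in knockout replicates 1 to 4, against 0.472, 0.556, 0.431 and 0.402 in control replicates 1 to 4. Relative to Eif4e, all 4 knockout libraries thus held less Eif4e1b than any control library. Eif4enif1 (ENSMUSG00000020454, chromosome 11, 3202392 to 3244588) had 466, 449, 342 and 521 CPM in knockout replicates 1 to 4, against 309.9, 483, 524 and 297 CPM in control replicates 1 to 4. Here the control libraries were split, with replicates 2 and 3 high and replicates 1 and 4 low, and the knockout range lay inside the control range (log2 fold change 0.14 ± 0.22, adjusted p = 0.6756 in edgeR).

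**Figure D2:**
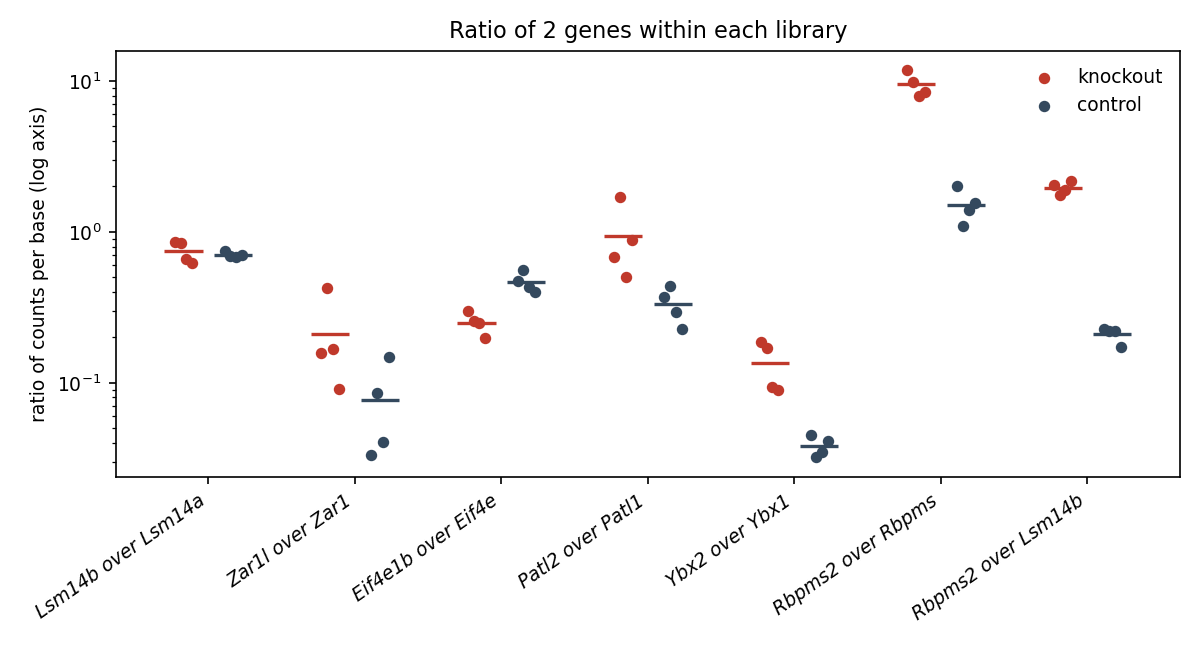
Ratio of counts per base of gene length between 2 genes within each library (log axis), knockout in red on the left and control in dark blue on the right, with lines at the means of 4 libraries. Rbpms2 over Rbpms, Rbpms2 over Lsm14b, Ybx2 over Ybx1, Patl2 over Patl1 and Eif4e1b over Eif4e do not overlap between groups, while Lsm14b over Lsm14a and Zar1l over Zar1 do.

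The falls of Lsm14a, Lsm14b and Eif4e1b depended on how libraries were scaled. The factors that correct a total for composition were 1.07 to 1.22 in knockout libraries, against 0.799 to 0.946 in control libraries. Without them the median tested gene stood at 0.49 on the log2 scale, and with them at 0.10. With library totals alone the log2 fold changes were -0.31 for Lsm14a, -0.24 for Lsm14b and -0.32 for Eif4e1b, none of which passed in edgeR (adjusted p = 0.1139, 0.1853 and 0.2063). Set against the median tested gene, those 3 values were -0.80, -0.75 and -0.82 with composition factors, and -0.80, -0.73 and -0.82 without. The rise of Rbpms2 passed under each scaling, with a log2 fold change of 2.99 on library totals alone and 2.04 with the length trend removed. The ratio of Rbpms2 to Lsm14b per base, a pair chosen after the data were seen, was 2.04, 1.76, 1.89 and 2.18 in knockout replicates 1 to 4, against 0.227, 0.2197, 0.2198 and 0.174 in control replicates 1 to 4.

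**Figure D3:**
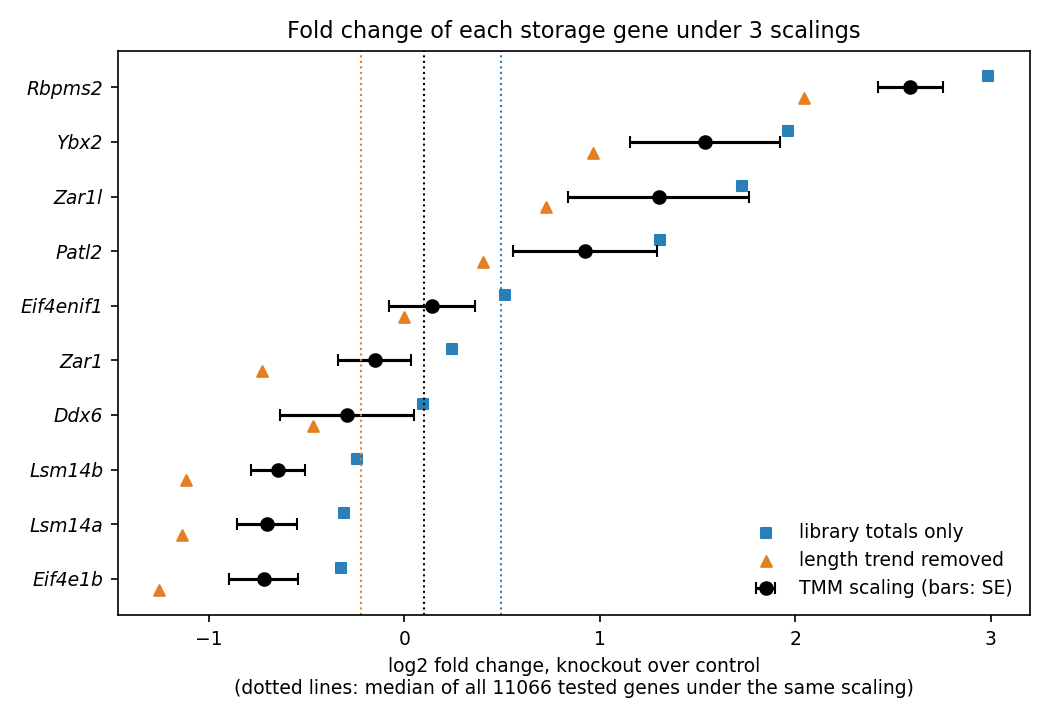
Log2 fold change of knockout over control for each storage gene, with composition scaling (black circles, bars are SE, n = 4 libraries per group), with library totals alone (blue squares) and with a gene length trend removed (orange triangles); dotted lines mark the median of all tested genes under the same scaling. Rbpms2 lies at 2.59, 2.99 and 2.04, and Zar1 and Ddx6 lie on both sides of 0.

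Levels can be compared between genes only per length. As CPM per 1000 bases of gene length (RPKM), the order in knockout oocytes was Rbpms2 at 375, Lsm14a at 259, Lsm14b at 191, Zar1 at 184, Eif4enif1 at 69.8, Zar1l at 35.8, Eif4e1b at 26.3, Patl2 at 12.4, Ybx2 at 8.54 and Ddx6 at 1.79 RPKM. The library ranges of Lsm14b and Zar1, of Eif4enif1 and Zar1l, of Zar1l and Eif4e1b, and of Patl2 and Ybx2 overlapped there, so their order is not resolved. In control oocytes the order was Lsm14a at 422, Lsm14b at 298, Zar1 at 204, Eif4enif1 at 63.3, Rbpms2 at 62.4, Eif4e1b at 43.3, Zar1l at 14.6, Patl2 at 6.52, Ybx2 at 2.94 and Ddx6 at 2.20 RPKM. There the ranges of Eif4enif1 and Rbpms2, of Zar1l and Patl2, and of Ybx2 and Ddx6 overlapped. Gene length here counts all annotated exons. For Eif4enif1 that is 6370 bases, against 3676 in its main transcript, so its place and its overlaps depend on the length used. Rbpms2 stood at rank 105 of 11066 tested genes in knockout and at rank 1039 in control oocytes, whereas Ybx2 stood at rank 4330 in knockout and 6299 in control oocytes. MSY2 is an abundant oocyte protein in mice, while the measured level of its mRNA was low in every library. The library kit primes on poly(A) tails, so mRNA with a short tail is read less well, and level and tail length cannot be told apart here.

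Transcript ends of the storage genes were examined for the cytoplasmic polyadenylation element, the letters TTTTAT or TTTTAAT, which direct tail length in oocytes. In the main GENCODE M21 transcript of each gene, the element lay in the last 100 bases of Lsm14a and Ybx2 and in 20.7% of all tested genes with such a transcript. Anywhere in the 3′ untranslated region, Ddx6 held 7, Lsm14a 3, Lsm14b 2 and Rbpms2, Ybx2 and Eif4enif1 1 each, and Zar1, Zar1l, Patl2 and Eif4e1b held 0, so 6 of the 10 held the element, as did 64.0% of tested genes. The genes with 0 included Eif4e1b, which fell, and Zar1, which was not called. In Zar1l and Ybx2 no polyadenylation signal (AATAAA or ATTAAA) lay near the annotated transcript end, so those ends may be incomplete. The 3′ untranslated regions measured 4250 bases in Ddx6, 1096 in Rbpms2, 1055 in Eif4e1b, 414 in Ybx2, 146 in Zar1 and 14 in Zar1l, against a median of 1037 over tested genes.

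The other genes of mRNA storage and repression also moved both ways. Of 71 matched genes of a wider list, 63 were tested, and 7 were called higher and 11 lower in edgeR, beside 13.6% higher and 12.2% lower among all tested genes, with a median log2 fold change of -0.014. The split moved with scaling: with library totals alone, 13 were called higher and 2 lower, and with the length trend removed, 8 and 21. Calls over all 11066 tested genes moved too, to 2382 higher and 504 lower with library totals alone. With the length trend removed they were 1028 higher and 2332 lower. The 11 lower genes became 4 without knockout replicate 1 or 2, and 7 without knockout replicate 4. Over all tested genes, 1347 lower genes became 936, 861 and 1075 without knockout replicates 1, 2 and 4. Of the 13 tested genes of decapping and the P-body, the granule where repressed mRNA gathers, 4 were higher and 1 lower in edgeR, beside the same 13.6% and 12.2% of all genes. DESeq2 called 5 higher and 2 lower, and voom 4 higher and 2 lower. Of all 11066 tested genes, DESeq2 called 1809 higher and 1753 lower, and voom 1846 higher and 1537 lower. The genes called higher in edgeR were Lsm2, Lsm3, Lsm4 and Lsm6, subunits of the Sm-like ring that binds mRNA ends and also serves splicing in the nucleus. Of the other ring subunits in the list, Lsm1 (log2 fold change 0.15, adjusted p = 0.6829) and Lsm5 (0.57, adjusted p = 0.4026) were not called in edgeR, and Lsm7 did not pass the filter. Lsm3 had 63.2, 96.9, 147 and 125 CPM in knockout replicates 1 to 4, against 46.0, 22.8, 19.6 and 45.6 CPM in control replicates 1 to 4 (log2 fold change 1.69, adjusted p = 0.004464 in edgeR). Lsm2 had 31.1 ± 5.38 CPM in knockout and 12.3 ± 2.45 CPM in control oocytes, with a difference of 1.34 ± 0.28 on the log2 scale (adjusted p = 0.005043 in edgeR). Lsm4 had 10.4, 8.46, 7.02 and 5.50 CPM in knockout replicates 1 to 4, against 5 counts over all 4 control libraries and none in control replicate 2, so no fold is given (adjusted p = 0.0005661 in edgeR). Lsm6 had 39.1 ± 4.86 CPM in knockout and 11.6 ± 10.7 CPM in control oocytes, with control replicate 4 at 27.3 CPM, and its call was lost without knockout replicate 2 or 4 or control replicate 2 or 3 (adjusted p = 0.05613 to 0.07003 in edgeR) and with the length trend removed (adjusted p = 0.07151). The decapping enzyme gene Dcp2, named after its value was seen, was the 1 gene called lower in edgeR, although its groups overlapped (log2 fold change -0.59, adjusted p = 0.03416 in edgeR).

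**Figure D4:**
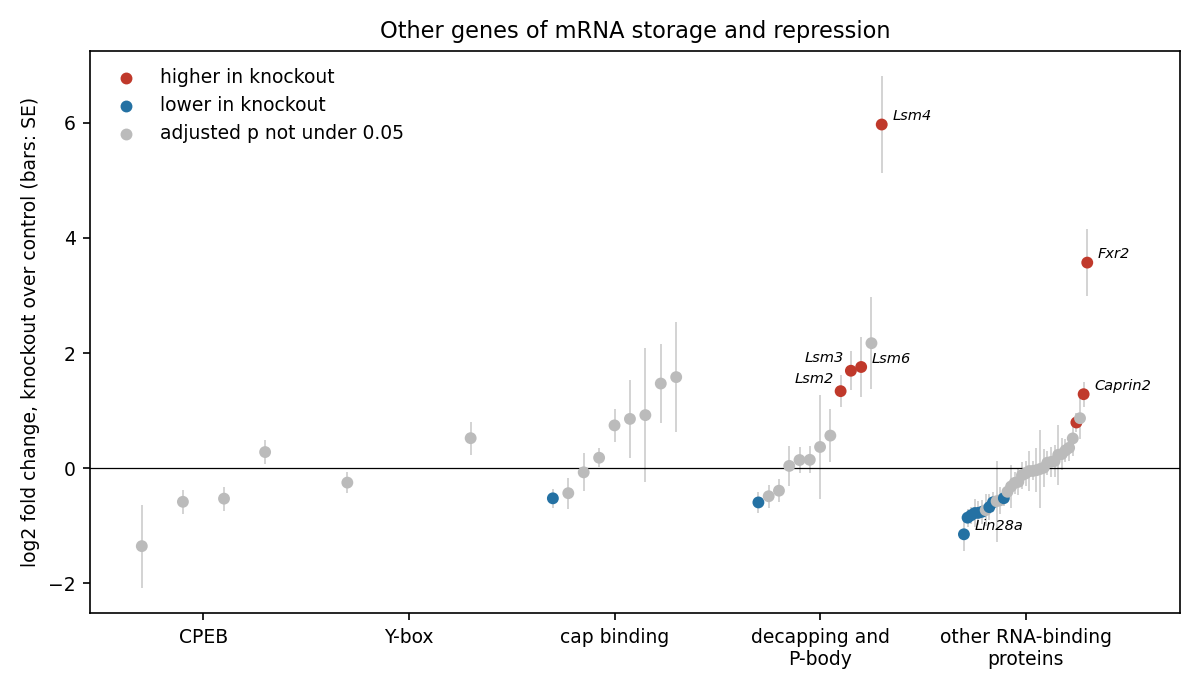
Log2 fold change of knockout over control (bars are SE) for the 63 tested genes of the wider list, by role. Red marks genes called higher, blue genes called lower and grey genes not called; Lsm4, drawn at 5.97, rests on 5 control counts, and its plotted size depends on the model's prior count.

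Among other RNA-binding repressors and stabilisers, 3 of 35 tested genes rose and 9 fell in edgeR, beside 13.6% higher and 12.2% lower among all tested genes. DESeq2 called 3 higher and 11 lower, beside 1809 higher and 1753 lower of all 11066 tested genes. For voom it was 3 higher and 10 lower, beside 1846 higher and 1537 lower of all. Fxr2, a relative of the fragile X protein, had 44.5, 21.6, 6.48 and 16.7 CPM in knockout replicates 1 to 4, against 0.992, 2.24, 1.82 and 2.40 CPM in control replicates 1 to 4. The knockout libraries varied widely, yet each lay above the control libraries (log2 fold change 3.57 ± 0.59, adjusted p = 0.001405 in edgeR). Caprin2, a cytoplasmic RNA-binding protein gene, had 119 ± 19.2 CPM in knockout and 48.7 ± 11.0 CPM in control oocytes (log2 fold change 1.28, adjusted p = 0.001614 in edgeR). Stau1, which encodes a protein that binds double-stranded RNA and is named here after its value was seen, stood 0.79 higher on the log2 scale in knockout oocytes (adjusted p = 0.005176 in edgeR). Pum2, a sequence-specific translational repressor, had 284, 281, 342 and 350.0 CPM in knockout replicates 1 to 4, against 613, 488, 583 and 595 CPM in control replicates 1 to 4 (log2 fold change -0.86 ± 0.15, adjusted p = 0.002282 in edgeR). Elavl2, an RNA-binding protein gene with an oocyte isoform, had 389.9 ± 18.0 CPM in knockout and 687 ± 82.2 CPM in control oocytes (log2 fold change -0.82, adjusted p = 0.00231 in edgeR). Of 9 tested genes of cap binding, only Eif4e3 was called in edgeR, lower in knockout oocytes at 450.0 ± 74.3 CPM, against 647 ± 31.2 CPM in control oocytes (log2 fold change -0.52, adjusted p = 0.03151 in edgeR). That call was lost with library totals alone (adjusted p = 0.5586), with no filter (0.0524), among genes of at least 10 CPM (0.06394) and without knockout replicate 1 or 2 or control replicate 2 or 3 (0.06152 to 0.1019). In this role DESeq2 also called 1 gene lower, and voom 2 higher and 1 lower, beside the counts over all tested genes given above for these tools. None of the 4 Cpeb genes, which encode the proteins that bind the polyadenylation element, was called in edgeR. At an unadjusted p under 0.05, edgeR had 2 of the 4, beside 4199 of all 11066 tested genes. DESeq2 called 2 of the 4 lower and voom 1, beside 1753 and 1537 of all tested genes. Cpeb3 came closest, at 92.8 ± 14.2 CPM in knockout and 139 ± 34.6 CPM in control oocytes (log2 fold change -0.58, adjusted p = 0.06129 in edgeR), and it passed in DESeq2 (-0.62, adjusted p = 0.02354) and voom (-0.61, adjusted p = 0.03482). In edgeR it passed with median-of-ratios scaling (-0.62, adjusted p = 0.04863), with the length trend removed (-0.70, adjusted p = 0.03471) and without control replicate 4 (-0.70, adjusted p = 0.02975).

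The genes whose pattern over the 8 libraries was most like that of Rbpms2, Zar1 and Ybx2 were found among 6498 tested genes of at least 10 CPM by the root-mean-square difference of centred log2 CPM. For Rbpms2 these were Sec23ip, at a difference of 0.16 on the log2 scale, Sdhaf2 at 0.19 and Ccdc115 at 0.24, with log2 fold changes of 2.47, 2.48 and 2.27. For Zar1 they were Ticrr at 0.07, Bri3 at 0.10 and Aurka at 0.13, and for Ybx2 they were Rln3, Sgta and Ska1, at 0.21, 0.22 and 0.22.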

How the data were processed

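The RNA of 4 knockout and 4 control MII oocytes was sequenced 1 oocyte per library, with groups taken from the labelled genotype. Per the labels' protocols, SMARTer Ultra Low chemistry was used, in which cDNA starts from the poly(A) tail without molecular identifiers or a strand mark. The authors used GSNAP, featureCounts 1.4.4 and DESeq2 1.3.79 on mm10, per the submitters' processing notes. The deposited counts per gene were made on Ensembl release 69 without strand, per the file headers. The authors' deposited comparison of 2709 genes gives log2 fold changes, their standard error (a score), p-values, a normalized signal and RPKM. Only its shrunken fold changes and its adjusted p-values are quoted, with the unshrunken fold change added for Ybx2. Its largest adjusted p, from DESeq2, is 0.009996, so it lists only genes that passed. It holds 5 of the 10 storage genes and could give no value for the others. The counts were whole in all 8 columns.

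The test was the quasi-likelihood F test of edgeR 4.0.16 (R 4.3.3) on genotype alone, after filterByExpr and with TMM factors. Benjamini-Hochberg adjustment ran over the 11066 genes kept, with a threshold of 0.05. CPM use totals multiplied by TMM factors; an SE divides the log2 fold change by the root of F. The script was tested on simulated counts. Symbols matched 35449 identifiers. The 10 storage genes and all lists were chosen with earlier results of these data known, and the ratios of Rbpms2 to Rbpms and to Lsm14b were added after the data were seen; ratios were not tested. Named genes were Setd1b, the 10 storage genes, up to 4 called genes by smallest p per role of the wider list (otherwise 1) and the 3 genes most like Rbpms2, Zar1 and Ybx2. Alternatives were other scalings, filters and tools (DESeq2 1.42.0, limma 3.58.1 voom with quality weights), a replicate block, a loess length trend (span 0.5), an adjusted p of 0.01 and each library left out in turn. Precision is limited by 4 libraries a group. Promoters are from RefSeq (GRCm38.p6, the assembly called mm10). Transcript ends and exon positions used to trim the promoters are from GENCODE M21.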

Additional observations from a re-analysis of the deposited data

Results flagged for a closer look

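Lsm14b in knockout replicate 3, at 505 CPM, stood apart from the other 3 knockout libraries, which lay between 561 and 572 CPM. The ratio of Rbpms2 to Lsm14b per base in control replicate 4, at 0.174, stood apart from the other 3 control libraries, which lay between 0.2197 and 0.227. In both cases the gap to the nearest library, as a share of the range of its group, exceeded Dixon's 95% critical value. Chance alone gives such a gap in about 1 of 20 groups, and 58 groups were examined.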

How the results depend on the processing

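Scaling by library totals alone gave 2382 higher and 504 lower genes in all, 4 higher and 0 lower storage genes, and 13 higher and 2 lower genes of the wider list. Zar1 (0.24) and Ddx6 (0.093) then turned sign, Zar1l (1.73) and Patl2 (1.31) passed, and Lsm14a (-0.31), Lsm14b (-0.24) and Eif4e1b (-0.32) no longer passed. The same scaling moved the median of all genes, which then stood at 0.49 on the log2 scale, against 0.10 with composition factors. With the length trend removed, 1028 genes were higher and 2332 lower in all, 21 of the wider list were lower and 1 storage gene was higher. The median of all genes then stood at -0.22. Zar1 passed (-0.73), Ybx2 did not (0.96), and Eif4enif1 (-0.0011) and Ybx3 (-0.057) turned sign. Among genes of at least 10 CPM in 4 libraries, 4 storage genes were higher, with Zar1l at 1.44 and Patl2 at 1.05, and 6 of the wider list were lower. Of all 6577 genes tested there, 1403 were higher and 1093 lower. Zar1l also passed in DESeq2 (1.25) and in voom (1.47). At an adjusted p of 0.01, 747 genes were higher and 644 lower, with 1 storage gene higher and 2 of the wider list lower. The cause of these changes, the common shift among them, was not tested.

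With the replicate number as a block, 861 genes were lower in all, 4 of the wider list were lower, and Eif4e1b (-0.72, adjusted p = 0.05191 in edgeR), Setd1b (adjusted p = 0.07003) and Eif4e3 (adjusted p = 0.08853) missed the threshold. Same-numbered libraries did not deviate together, with correlations of -0.117 to -0.0212. No label says what the numbers mark, and so few libraries cannot show whether a weak shared effect is present.

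With 1 library left out in turn, 1012 to 1529 genes were higher and 861 to 1241 lower in all, 1 to 3 storage genes were higher and 3 lower, and 4 to 12 of the wider list were lower. The ranges were 0.85 to 1.65 for Zar1l and 1.32 to 1.71 for Ybx2. The lowest count of lower genes in all, 861, came without knockout replicate 2, and the 1 higher storage gene without knockout replicate 1. Without knockout replicate 1 or 2, 4 of the wider list were lower, and without knockout replicate 4 it was 7. Depth limits Ybx2 and Ddx6 most, with 798 and 526 counts in knockout libraries and 238 and 577 in control libraries.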
